A study of Sus scrofa with 61 samples.

Results

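A set of 9 solute carriers that bring amino acids into cells, or that anchor such a carrier in the membrane, was followed in the longissimus muscle of pig fetuses near the end of gestation. The genes were SLC38A1, SLC38A2, SLC38A4, SLC7A1, SLC7A5, SLC7A8, SLC3A2, SLC1A4 and SLC1A5, chosen by name out of 13311 gene symbols that could be given to probes of the array. A probe was counted for a gene when the array's own gene name, or the symbol in the gene lists that accompany the study, was that of the gene. This gave 16 of the 60305 probes on the array, for 8 of the 9 genes. Of these probes 14 passed a filter on dim signal, which kept 42436 probes in all and left 7 of the 9 genes to be tested.

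The data came from 61 fetuses of 4 genotypes, taken on day 90 or day 110 of gestation, with 1 array per fetus. LW (written LWLW in the labels, Large White) and MS (MSMS, Meishan) fetuses were purebred, MSLW fetuses had an LW mother and an MS father, and LWMS fetuses had an MS mother and an LW father. On day 90 each genotype had 8 fetuses. On day 110 there were 9 LW, 8 LWMS, 7 MS and 5 MSLW fetuses. Per the study's methods every sow carried offspring of LW and of MS boars at once, and the fetuses used were male. The labels do not say which fetuses were littermates, so the p-values treat all fetuses as independent, and each breed's sows and boars stand in for the whole breed. The comparisons ask what changes in muscle during the last weeks before birth and whether it differs between LW and MS, whose piglets differ in survival at birth.

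As background, muscle cells take up amino acids through carriers with different partners and driving forces. SLC38A1, SLC38A2 and SLC38A4 (also called SNAT1, SNAT2 and SNAT4) carry small neutral amino acids such as alanine and glutamine together with sodium, and SLC38A2 is the carrier that classically increases when amino acids are scarce. SLC7A1 (CAT1) carries the cationic amino acids arginine and lysine. SLC7A5 (LAT1) and SLC7A8 (LAT2) exchange large neutral amino acids such as leucine, and both work only when bound to SLC3A2 (4F2hc, CD98), a heavy chain that does not form the pore. SLC1A4 (ASCT1) and SLC1A5 (ASCT2) exchange alanine, serine, cysteine and, for SLC1A5, glutamine. Amino acids that enter in this way feed protein synthesis and the kinase complex mTORC1. In the mouse, Slc38a4 is an imprinted gene whose paternal copy is the active one in several tissues.

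The probes that carry the results were 60 bases long, and their sequences were read from the scanner files as written there. An SLC1A4 and an SLC1A5 probe are given first because these carriers are closely related and both probes lie in what reads as coding sequence. The longest run they share is the 8 bases in capitals.

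SLC1A4, probe O9419: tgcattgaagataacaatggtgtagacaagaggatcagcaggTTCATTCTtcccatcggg
SLC1A5, probe A_72_P309933: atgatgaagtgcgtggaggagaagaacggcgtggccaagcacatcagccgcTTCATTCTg

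The main probes of SLC3A2 and SLC7A1 both held the letters AATAAA, the polyadenylation signal, in capitals in the stretches of 30 bases below. These letters stood as written in 3 of the 16 transporter probes and in 10.3% of all 60305 probes, or in 4 of 16 and 14.1% when either strand was counted. The probe for SLC3A2 that follows them reads as coding sequence and is shown because it does not overlap the other SLC3A2 probes.

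SLC3A2, probe AK233675, bases 21 to 50: ttttctgcttcaAATAAAtgtcagccctgc
SLC7A1, probe A_72_P165131, bases 26 to 55: tccgcagatcttAATAAAttccgtctctgg
SLC3A2, probe A_72_P540268: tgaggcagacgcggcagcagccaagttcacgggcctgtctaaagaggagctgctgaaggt

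SLC38A4 was measured by 2 probes that did not overlap, of which bases 31 to 60 are given. The capitals mark a run of A at the end of the main probe.

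SLC38A4, probe A_72_P316218, bases 31 to 60: catccacctggggatgtactatccAAAAAA
SLC38A4, probe A_72_P404088, bases 31 to 60: cttgtccttctgttctagagaatggtacct

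A pair of the SLC1A5 probes was not independent. They shared a run of 40 bases and differed in the length of a run of T, in capitals, and they are shown so that their agreement is not read as that of separate probes.

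SLC1A5, probe A_72_P511215, bases 25 to 54: gggtaaataccgatgTTattccagagtaca
SLC1A5, probe A_72_P128251, bases 24 to 53: gggtaaataccgatgTTTattccagagtac

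Similarly, the SLC3A2 probes AK233675 and A_72_P133051 shared 53 bases. The SLC1A4 probe O9419 shared all 60 bases with a second probe, A_72_P229812, that lay outside the rule. AK233675 was named by the study's gene lists alone.

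How far each gene could be measured differed. The main probe of a gene was the kept probe with the highest mean signal. The main probes of SLC38A4, SLC3A2, SLC7A1, SLC38A1 and SLC1A5 were well above background, by the scanner software's own call, on 61 of 61 arrays. For SLC7A8 this held on 55 arrays and for SLC1A4 on 42, with 2 of 9 LW, 3 of 7 MS, 3 of 8 LWMS and 5 of 5 MSLW arrays on day 110. The SLC38A2 probe under the rule, O8802, was well above background on 2 of 61 arrays and the second SLC7A1 probe, A_72_P452488, on 3 of 61, and neither was tested. SLC7A5 had no probe under the rule. A probe that the array describes as this protein was well above background on 3 of 61 arrays, 2 of them MS on day 110 and 1 LW on day 90, so no level of SLC7A5 is given. Its sequence is printed because the light chain it should detect is the best known partner of SLC3A2.

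SLC7A5, probe A_72_P178521: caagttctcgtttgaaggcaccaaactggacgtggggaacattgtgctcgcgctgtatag

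The 61 arrays lay on 8 slides with 6 to 8 of the 8 groups on each, and all were scanned on 1 day, so each comparison could also be made within slides. The muscle fibre markers ACTA1, CKM, DES, MB, TTN, MYL1, TNNT3 and MYH3 were all measured, with a summed signal between 1634862 and 1906624 that overlapped between all groups. Quantile normalization gives all arrays the same set of values and so limits how far a sum of bright probes can vary. The overlap therefore cannot decide whether the fibre content differed. Single fibre markers did move. With age 5 of the 8 rose and MYH3, the embryonic myosin, fell (-2.57), where 72.3% of all kept probes changed. On day 110 MS exceeded LW in MB (1.12) and TTN (0.73) and was lower in MYH3 (-2.87), where 29% of all kept probes differed. The arrays measured RNA of whole tissue, in which fewer cells of a type and less RNA per cell cannot be told apart.

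With gestational age the transporters moved in both directions. Averaged over the 4 genotypes, SLC38A4, SLC3A2 and SLC7A1 rose between day 90 and day 110, SLC1A5, SLC7A8 and SLC1A4 fell, and SLC38A1 did not pass the test (limma, adjusted p under 1%). Thus 3 of the 7 measured genes rose and 3 fell. Age changed much of the array, since 37.3% of all kept probes were higher and 35% lower on day 110, so the number of transporters that changed was not a feature of this group. Their median difference was 0.12 on the log2 scale against 0.04 over all kept probes.

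**Figure D1:**
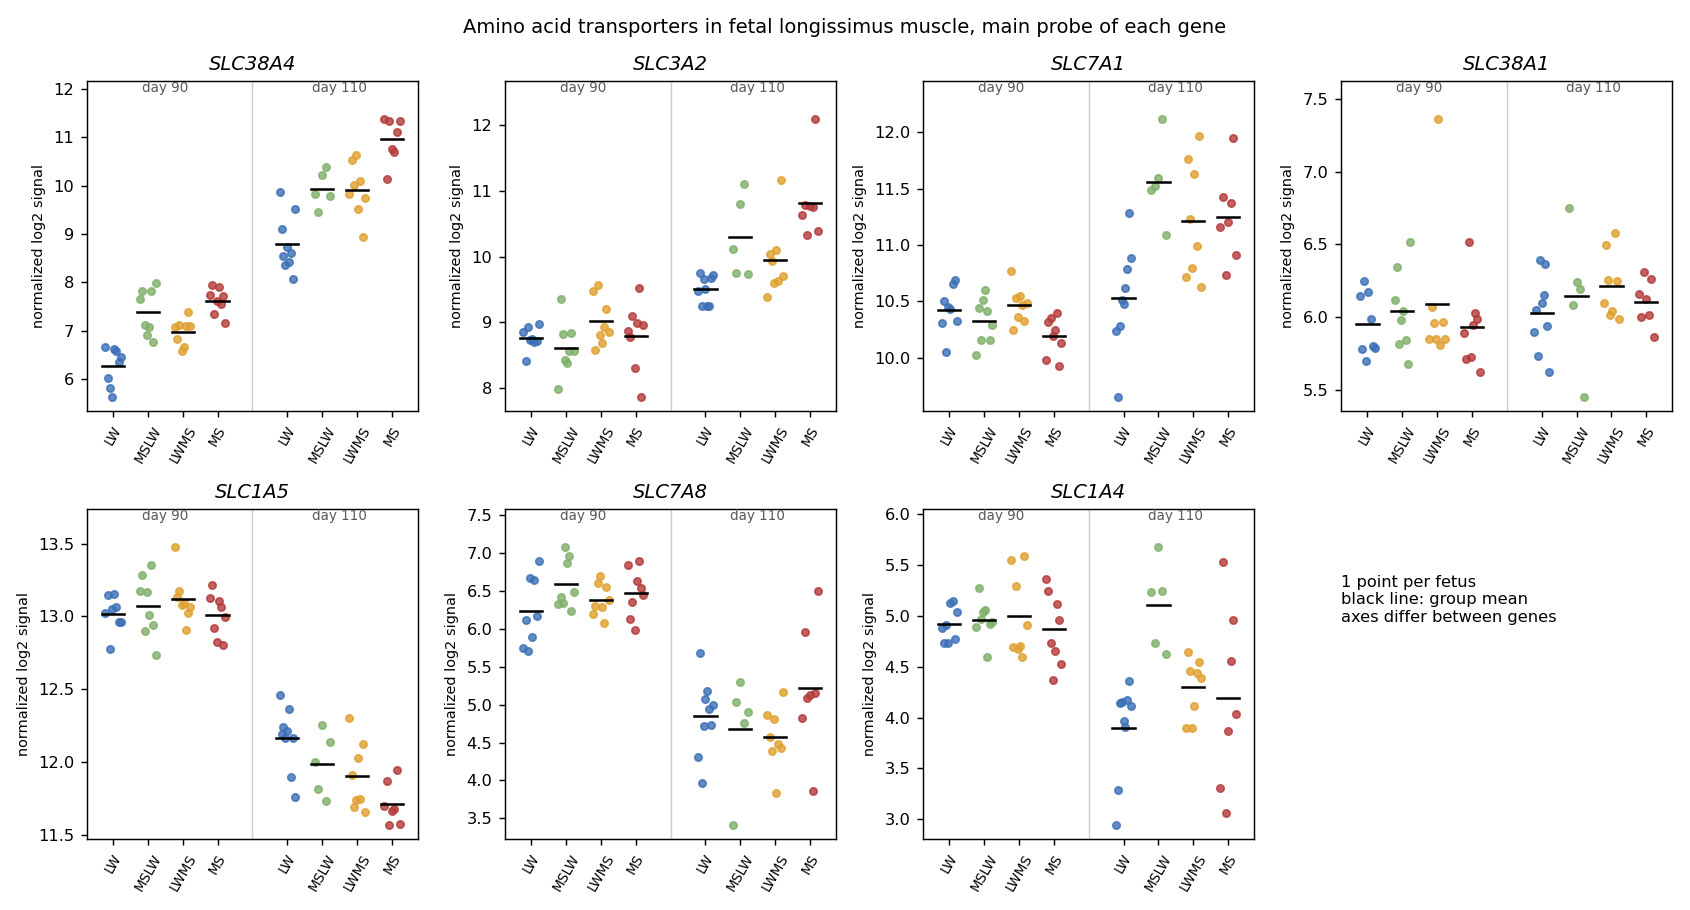
Normalized log2 signal (y axis) of the main probe of each of the 7 measured transporters in the 4 genotypes on day 90 and day 110 (x axis), with 1 point per fetus and a black line at each group mean. SLC38A4 in LW fetuses reached at most 6.66 on day 90 and 9.87 on day 110, below every MS fetus of the same day.

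SLC38A4 had the largest difference of the 7 genes. In LW its normalized log2 signal lay between 5.63 and 6.66 on day 90 (median 6.40) and between 8.07 and 9.87 on day 110 (median 8.61). In MS it lay between 7.16 and 7.94 on day 90 (median 7.67) and between 10.13 and 11.37 on day 110 (median 11.11). The days did not overlap in either genotype, nor did they in the crosses. In LWMS the range was 6.58 to 7.39 (median 7.09) on day 90 and 8.95 to 10.64 (median 9.92) on day 110. In MSLW it was 6.77 to 7.98 (median 7.39) on day 90, and the 5 fetuses of day 110 had 9.46, 9.79, 9.82, 10.22 and 10.39. The rise averaged over genotypes was 2.84 ± 0.11 (SE) on the log2 scale, or 7.15-fold (adjusted p = 1.06e-30, limma), and in each genotype it lay between 2.54 and 3.34. Day 110 was higher in 7 of 7 slides that held both days of LW and in 7 of 7 for MS. The second probe, well above background on 39 of 61 arrays and on 2 of 8 LW arrays of day 90, gave 2.78 ± 0.18.

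SLC3A2, the heavy chain, rose in all 4 genotypes. The signal in LW went from 8.42 to 8.98 (median 8.74) on day 90 to 9.25 to 9.76 (median 9.51) on day 110, and in MS from 7.86 to 9.53 (median 8.91) to 10.34 to 12.09 (median 10.75). In LWMS it was 8.58 to 9.57 (median 8.89) and then 9.39 to 11.17 (median 9.82). In MSLW it was 7.99 to 9.35 (median 8.56) on day 90 and 9.74, 9.75, 10.12, 10.80 and 11.10 on day 110. The days did not overlap in LW, MS and MSLW and overlapped in LWMS. The averaged rise was 1.35 ± 0.11, or 2.55-fold (adjusted p = 1.65e-16), and the 4 probes of the gene gave 1.17 to 1.44, all past the test.

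SLC7A1, the cationic amino acid carrier, rose by 0.79 ± 0.09 (adjusted p = 3.63e-12) on average, but not in every genotype. In LW the signal was 10.05 to 10.69 (median 10.44) on day 90 and 9.65 to 11.29 (median 10.51) on day 110, with ranges that overlapped. In MS it was 9.93 to 10.40 (median 10.22) and then 10.74 to 11.95 (median 11.20), without overlap. In MSLW it was 10.02 to 10.60 (median 10.35) on day 90 and 11.09, 11.49, 11.52, 11.60 and 12.11 on day 110, again without overlap. LWMS ranges, 10.24 to 10.77 (median 10.48) and 10.62 to 11.97 (median 11.11), overlapped slightly. The change was 0.10 in LW (95% confidence interval -0.22 to 0.42, adjusted p = 0.627) and 0.75 in LWMS, 1.06 in MS and 1.24 in MSLW, all of which passed the test.

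SLC1A5, the glutamine exchanger, fell in all 4 genotypes, and day 90 and day 110 did not overlap in any of them. In LW the signal was 12.78 to 13.15 (median 13.04) on day 90 and 11.76 to 12.46 (median 12.19) on day 110, and in MS 12.80 to 13.22 (median 13.03) and 11.57 to 11.94 (median 11.67). In LWMS it was 12.91 to 13.48 (median 13.08) and 11.66 to 12.30 (median 11.83). The MSLW fetuses of day 90 had 12.74 to 13.35 (median 13.09), and those of day 110 had 11.73, 11.81, 12.00, 12.13 and 12.25. The averaged difference was -1.11 ± 0.05, a 2.17-fold fall (adjusted p = 1.02e-28), and the 4 probes gave -1.14 to -0.93.

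SLC7A8, the only light chain of the chosen set with a measurable signal, also fell in all 4 genotypes, opposite to its heavy chain SLC3A2. In LW its signal was 5.71 to 6.89 (median 6.15) on day 90 and 3.96 to 5.69 (median 4.94) on day 110. In MS it was 5.99 to 6.90 (median 6.50) and 3.87 to 6.51 (median 5.13), which overlapped, whereas the days did not overlap in LW, LWMS and MSLW. The difference was -1.60 ± 0.12, or a 3.02-fold fall (adjusted p = 1.77e-17). The size depended on the background correction, since the scanner's median signal and the normexp correction, a model-based subtraction of background, gave differences closer to 0, as small as -0.67. A second probe, named as SLC7A8 through RefSeq, fell by 0.43 on the log2 scale (adjusted p = 0.00144).

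SLC1A4, the alanine and serine exchanger, was well above background on the fewest arrays of the 7 genes and fell on average by 0.57 on the log2 scale (SE 0.11, adjusted p = 9.85e-06). Its LW signal was 4.73 to 5.14 (median 4.90) on day 90 and 2.94 to 4.36 (median 4.11) on day 110, without overlap. In MS it was 4.37 to 5.36 (median 4.85) and 3.06 to 5.53 (median 4.04), so that the MS fetuses of day 110 spanned those of day 90. In MSLW the change was 0.14 (interval -0.35 to 0.64, adjusted p = 0.645). The difference in MS, -0.68 (adjusted p = 0.0065), did not pass the test under 5 of 12 alternatives, which gave adjusted p-values from 0.00167 to 0.0755. Where few arrays were well above background these levels are close to the limit of the array, and with the normexp correction the averaged difference was -0.13.

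SLC38A1 had signals between 5.45 and 7.36 in all groups, and the days overlapped in every genotype. Its difference was 0.12 ± 0.08 (interval -0.04 to 0.28, adjusted p = 0.167), and a second probe, named by the array's description, gave 0.19 (adjusted p = 0.0308). SLC38A2 was measured by 9 probes outside the rule, 8 of them assigned to SLC38A2 through RefSeq and 1 by the array's description. All 9 rose with age, by 0.82 to 1.37 on the log2 scale. On the probe of them with the highest mean signal the LW signal was 12.76 to 13.29 on day 90 and 13.22 to 14.21 on day 110, and the MS signal was 12.58 to 12.99 and 12.87 to 13.82. In both genotypes the ranges overlapped at their ends. In the RefSeq annotation of assembly Sscrofa11.1 SLC38A1, SLC38A2 and SLC38A4 are neighbours, with only 4 uncharacterised loci among them, and their differences with age ran from 0.12 to 2.84.

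**Figure D2:**
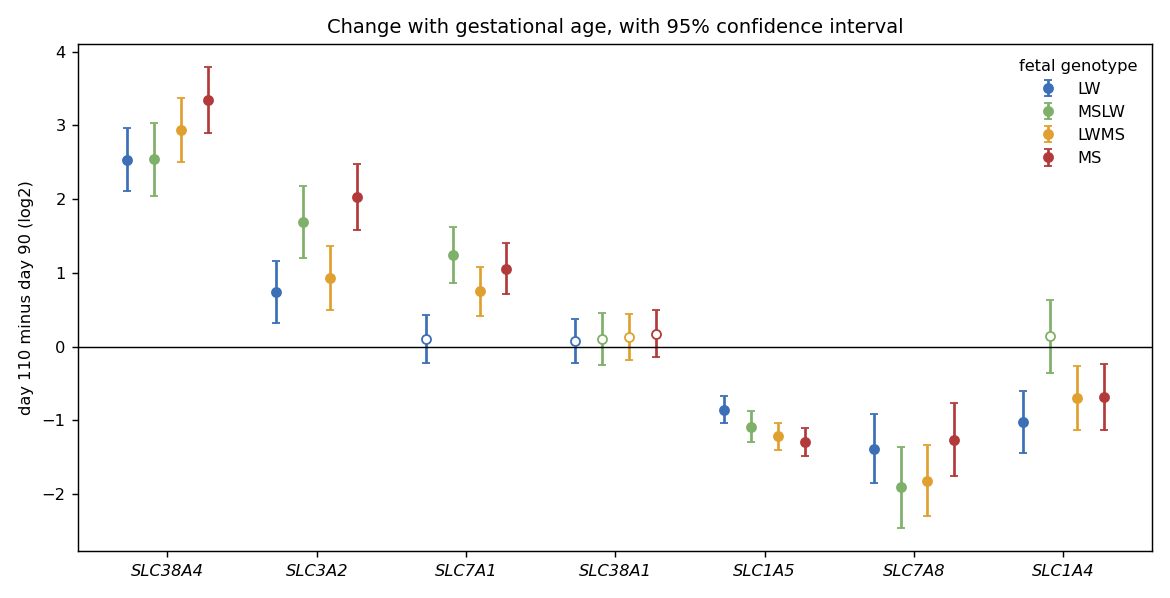
Difference between day 110 and day 90 on the log2 scale (y axis) for each transporter (x axis) and genotype (colour), with 95% confidence intervals and filled symbols where the adjusted p was under 1%. SLC7A1 in LW stood at 0.10 with an interval across 0, while MSLW, LWMS and MS stood at 0.75 or more.

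**Figure D3:**
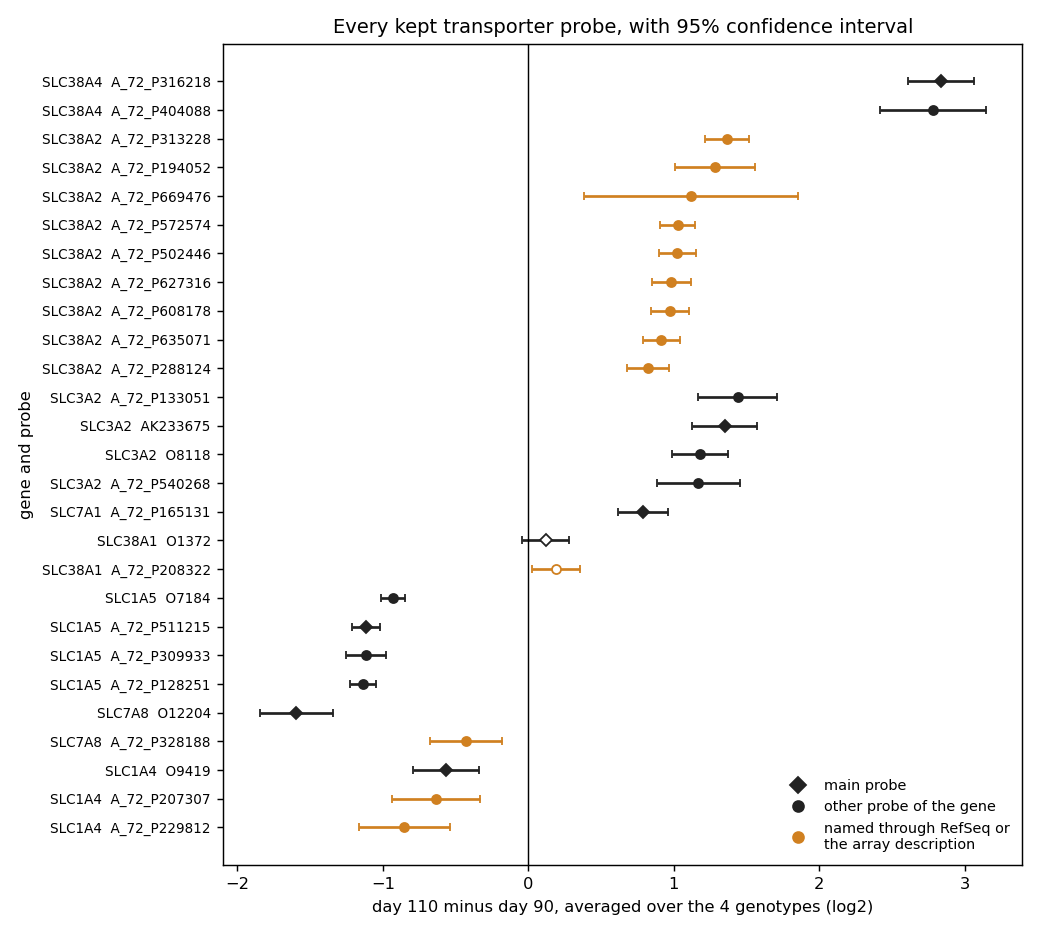
Difference between day 110 and day 90, averaged over the 4 genotypes, on the log2 scale (x axis) with its 95% confidence interval for every kept probe of the transporters (y axis), in black for probes under the rule and in orange for probes named through RefSeq or the array's description. Filled symbols had an adjusted p under 1%, and probes of the same gene lay on the same side of 0, with SLC38A2 between 0.82 and 1.37.

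Taken by genotype, 6 of the 7 genes changed with age in MS, 6 in LWMS, 5 in MSLW and 5 in LW. The shares of all kept probes that changed were 56.7% for MS, 50.9% for LWMS, 44.6% for MSLW and 45.3% for LW. The genes that missed the test were SLC38A1 in all 4 genotypes, SLC7A1 in LW and SLC1A4 in MSLW. All comparisons that involve the same group share its fetuses.

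The purebred genotypes differed in SLC38A4 on both days. On day 90 SLC38A4 alone of the 7 genes differed, at 1.36 ± 0.22 on the log2 scale higher in MS than in LW, or 2.56-fold (adjusted p = 2.58e-06), while 12.8% of all kept probes differed. The LW fetuses all lay below the MS fetuses, and MS was higher in 8 of 8 slides. On day 110 the difference was 2.16 ± 0.22, or 4.47-fold (adjusted p = 8.23e-12), again without overlap and in 6 of 6 slides. The second probe gave 2.62 ± 0.35 on day 110 (adjusted p = 2.39e-08) and 0.94 ± 0.35 on day 90 (adjusted p = 0.0485), where few arrays were well above background.

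On day 110, 4 of the 7 genes differed between MS and LW, against 29% of all kept probes. Beside SLC38A4, SLC3A2 was higher in MS by 1.32 ± 0.22 (adjusted p = 1.75e-06), with every MS fetus above every LW fetus and 6 of 6 slides higher. SLC7A1 was higher in MS by 0.72 ± 0.17 (adjusted p = 0.000383), with ranges that overlapped and 5 of 6 slides higher. SLC1A5 was lower in MS, at -0.45 ± 0.10 (adjusted p = 0.000116), and lower in 6 of 6 slides although the ranges overlapped. The SLC3A2 probes were not of one size, since O8118 gave 0.40 (adjusted p = 0.082) and the other 3 gave 1.19 to 1.45. The differences of SLC1A4 (0.30, interval -0.14 to 0.73), SLC7A8 (0.37, interval -0.11 to 0.86) and SLC38A1 (0.08, interval -0.24 to 0.39) did not pass the test. None of the 9 probes of SLC38A2 differed between MS and LW on either day, with differences from -0.59 to 0.26 on day 110.

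**Figure D4:**
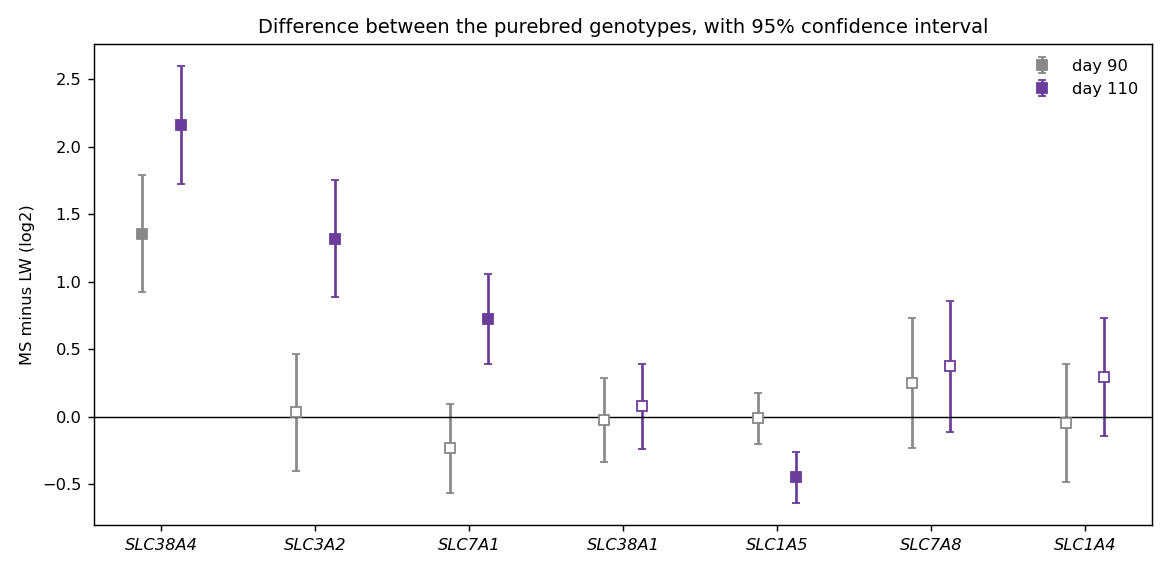
Difference between MS and LW on the log2 scale (y axis) for each transporter (x axis) on day 90 (grey) and day 110 (purple), with 95% confidence intervals and filled symbols where the adjusted p was under 1%. SLC38A4 was higher in MS on both days (1.36 and 2.16), and SLC3A2 stood at 0.03 on day 90 and 1.32 on day 110.

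The change with age was larger in MS than in LW for 2 of the 7 genes, against 5.95% of all kept probes. For SLC3A2 the rise was 0.74 in LW and 2.03 in MS, a difference of 1.29 ± 0.31 (adjusted p = 0.00289). For SLC7A1 it was 0.10 in LW and 1.06 in MS, a difference of 0.96 ± 0.24 (adjusted p = 0.00393). Within slides the difference had the same sign in 6 of 6 for both genes, from 0.42 to 1.96 for SLC3A2 and from 0.64 to 1.66 for SLC7A1. Of the genes that did not pass, SLC38A4 had a higher age change in MS in 6 of 6 slides (0.24 to 1.63) and SLC1A5 a lower one in 6 of 6 (-0.86 to -0.30). The main probes of SLC3A2 and SLC7A1 and the second SLC38A4 probe were in the study's list for an interaction of age with the 4 genotypes. So were the SLC3A2 probes A_72_P133051 and A_72_P540268. That list came from the same fetuses, and the results of these probes here are not independent evidence. Apart from the main probe, the 3 SLC3A2 probes gave 0.85 to 1.27, with adjusted p-values from 0.0152 to 0.0208. At the 1% threshold the call thus rested on the main probe, whose gene name comes from the study's lists alone. SLC38A4 rose by 0.80 more in MS (interval 0.19 to 1.42, adjusted p = 0.0695), and its second probe by 1.67 more (adjusted p = 0.0174). SLC1A5 fell further in MS, by -0.44 (adjusted p = 0.0205), and with slide as a block this reached -0.47 (adjusted p = 0.00333, against 0.00333 to 0.0434 over the alternatives).

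The crosses lay between the purebred genotypes for SLC38A4. On day 110 the SLC38A4 means were 8.80 ± 0.59 (SD, n = 9) in LW, 9.92 ± 0.54 (n = 8) in LWMS, 9.94 ± 0.37 (n = 5) in MSLW and 10.97 ± 0.46 (n = 7) in MS. Both crosses were above LW, by 1.11 and 1.13, and below MS, by 1.05 and 1.03, and all 4 of these differences passed the test (adjusted p from 0.000112 to 0.00511). The crosses themselves differed by 0.02 (interval -0.48 to 0.51), and their mean lay 0.04 above the mid-parent value (interval -0.29 to 0.37). On day 90 the means were 6.27 ± 0.40 in LW, 6.98 ± 0.27 in LWMS, 7.40 ± 0.48 in MSLW and 7.62 ± 0.27 in MS (SD, n = 8 each). MSLW, with the MS father, was 0.41 above LWMS (interval -0.02 to 0.85), which did not pass the test. The differences between the other neighbours in this order were not tested. With the mean of both SLC38A4 probes, MSLW minus LWMS was 0.25 on day 90 and -0.24 on day 110, and neither passed the test.

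On day 110 SLC3A2 followed the same order of genotypes, and SLC7A1 and SLC1A4 did not. SLC3A2 means were 9.50 ± 0.21 in LW, 9.95 ± 0.55 in LWMS, 10.30 ± 0.62 in MSLW and 10.82 ± 0.59 in MS (SD), and of the 5 differences that involve a cross only that of MS and LWMS, 0.88 (adjusted p = 0.00634), passed the test. SLC7A1 means were 10.53 ± 0.46 in LW, 11.22 ± 0.52 in LWMS, 11.25 ± 0.39 in MS and 11.56 ± 0.37 in MSLW. Both crosses lay above LW, by 0.69 (adjusted p = 0.00155) and 1.04 (adjusted p = 8.66e-05), and the differences of MS from LWMS (0.04) and from MSLW (-0.31) did not pass the test. SLC1A4 was highest in MSLW, where the 5 fetuses had 4.62, 4.74, 5.23, 5.24 and 5.68, all above every LW fetus. Its probe was well above background in 5 of 5 MSLW fetuses but in 2 of 9 LW and 3 of 8 LWMS fetuses, so the lower levels are close to the limit of the array and the sizes are uncertain. MSLW exceeded LW by 1.21 (adjusted p = 0.000434), by 0.50 with the median signal and by 0.29 with the normexp correction. The probe of the same 60 bases gave 0.82 (adjusted p = 0.106). MSLW exceeded LWMS by 0.81 (interval 0.31 to 1.30, adjusted p = 0.0619), and by 0.23 with the normexp correction. In all, 2 of 7 genes differed between LWMS and LW (9.05% of all kept probes), 3 between MSLW and LW (4.98%), 2 between MS and LWMS (4.3%) and 1 between MS and MSLW (4.06%). These contrasts were added after the data were seen.

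Between the reciprocal crosses no transporter passed the test on either day, against 0.5% of all kept probes on day 90 and 0.912% on day 110. At an unadjusted p under 0.05 limma called 0 of 7 on day 90 and 1 of 7 on day 110, SLC1A4, where 9.55% and 15% of all kept probes were under it. Against the mid-parent value none passed either, where 0.0495% of all kept probes did on day 90 and 0.0778% on day 110. The unadjusted counts were 0 of 7 and 3 of 7, the latter being SLC1A4, SLC7A1 and SLC7A8, against 3.63% and 7.02% of all kept probes. When the change with age was split by parent, SLC3A2 rose by 1.02 ± 0.22 more in fetuses of an MS father than in those of an LW father (adjusted p = 0.00605), the only one of the 7 genes to pass, against 0.462% of all kept probes. SLC7A1 gave 0.71 ± 0.18 (adjusted p = 0.0259). Both belong to the study's own list for this contrast in these fetuses, which makes them no independent evidence. On the SLC3A2 probe with the highest mean signal among those the array names, the value was 1.09 and did not pass (adjusted p = 0.0192). This probe, A_72_P133051, shared 53 bases with the main probe and is also in the study's list. Without MSLW replicate 4 of day 110 the SLC3A2 value was 0.93 (adjusted p = 0.017, against 0.000791 to 0.0192 over the alternatives). For the mother's genotype no transporter passed, against 3.05% of all kept probes, and 2 of 7 had an unadjusted p under 0.05, SLC38A4 at 0.58 and SLC1A5 at -0.29, where 22.6% of all kept probes had one. The maternal term of SLC3A2 was 0.26 (adjusted p = 0.526), and it was not tested against the paternal term. MSLW minus LWMS for SLC3A2 was -0.40 on day 90 (adjusted p = 0.575) and 0.35 on day 110 (adjusted p = 0.553).

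Fetuses of the same group also differed from each other, and there some transporters varied together. After group and slide means were subtracted, the Pearson correlation over the 61 arrays was 0.57 between SLC3A2 and SLC7A1, 0.45 between SLC3A2 and SLC1A4 and 0.41 between SLC7A1 and SLC1A4. SLC38A2, on the RefSeq-named probe with the highest mean signal, had -0.41 with SLC38A4 and -0.39 with SLC7A8. SLC38A4 and SLC3A2, which both rose with age, had 0.00. These are descriptions, and the points share arrays and normalization. They also depend on the probe. Within groups A_72_P288124, the SLC38A2 probe used, had -0.25 and -0.38 with the SLC38A2 probes A_72_P194052 and A_72_P669476. It had 0.63 to 0.83 with the rest of the kept SLC38A2 probes. With group means subtracted, O9419 and the SLC1A4 probe of the same 60 bases had an r of 0.34, and AK233675 had 0.98 and 0.68 with A_72_P133051 and O8118 but 0.11 with A_72_P540268, the SLC3A2 probe that reads as coding sequence. In 2 fetuses SLC3A2 stood far above the rest of the group. MS replicate 6 of day 110 had a SLC3A2 signal of 12.09 against a median of 10.70 in the other 6, was highest on all 4 SLC3A2 probes and had the highest SLC7A1 (11.95). LWMS replicate 7 of day 110 had 11.17 against 9.71, was also highest on all 4 probes and in SLC7A1 (11.97), and was the lowest of its group in SLC38A4 (8.95).

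**Figure D5:**
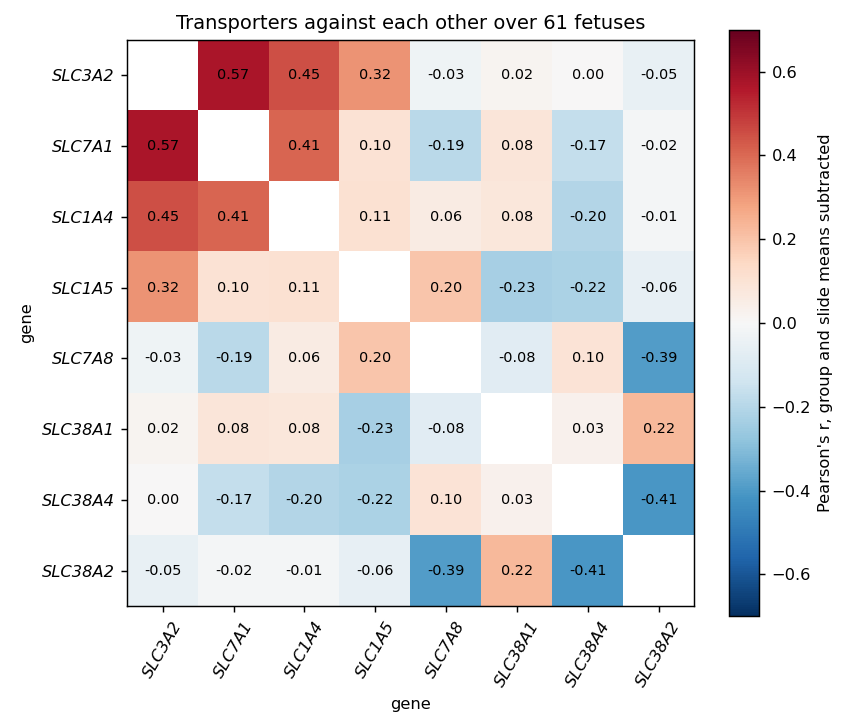
Pearson correlation (colour and number) between the transporters on both axes over 61 fetuses, after group and slide means were subtracted, with main probes and, for SLC38A2, the RefSeq-named probe with the highest mean signal. SLC3A2, SLC7A1 and SLC1A4 were positively correlated with each other (0.41 to 0.57), and the SLC38A2 probe used was negatively correlated with SLC38A4 (-0.41).

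The heavy chain was also set against the light chains of the chosen set within each day. SLC3A2 and SLC7A8 had a Pearson r of 0.10 on day 90 (n = 32, permutation p = 0.57, Spearman rho -0.01, p = 0.943) and -0.06 on day 110 (n = 29, permutation p = 0.794, rho -0.15, p = 0.472). Adjusted over these 2 relations the p-values were 0.794 for both r and 0.943 for both rho. Without the 2 fetuses farthest from the SLC3A2 median, r was 0.21 and -0.03. With slide means also subtracted r was 0.20 and -0.06. The main SLC7A8 probe had an r of only 0.16 with the second kept SLC7A8 probe, group means subtracted. With such low agreement between probes of the gene, a low r cannot decide whether SLC3A2 and SLC7A8 vary together. The relation with SLC7A5 could not be tested because its probe was too dim.

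The genes most like each transporter over the 61 arrays, group and slide means subtracted, were as follows. For SLC3A2 they were GARS (r = 0.76), AARS (0.72) and SARS (0.72), which charge transfer RNAs with glycine, alanine and serine. For SLC7A1 they were YARS (0.78), GPATCH4 (0.75) and SARS (0.74). For SLC1A4 they were MAT2A (0.61), AARS (0.57) and MCM3 (0.57). AARS was named for both SLC3A2 and SLC1A4, and SARS for both SLC3A2 and SLC7A1. SLC1A5 was most like PAQR8 (0.75), POSTN (0.75) and COL5A2 (0.74), of which POSTN and COL5A2 encode matrix proteins. For SLC38A4 they were UROD (0.64), GRB10 (0.62) and HFE2 (0.55). For SLC38A1 (C1ORF9, ZC3H4 and STRA6) and SLC7A8 (RTN4, MORN3 and ACTR6) r did not exceed 0.62. These are the top ranks among 40448 probes and carry no test.

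Most markers of fibroblasts and matrix shared the directions of SLC1A5, lower on day 110 and lower in MS than in LW on that day. All 5 of COL1A1, COL3A1, PDGFRA, DCN and LUM fell with age, by -1.70 (COL3A1) to -0.80 (PDGFRA), where 35% of all kept probes fell. On day 110, 4 of 5 were lower in MS than in LW, from -1.11 (LUM) to -0.56 (DCN). Of all kept probes 29% differed there, in either direction. The summed signal of the 5 markers on day 90 was 299790 to 379614 in the LW fetuses and 342078 to 369165 in the MS fetuses. On day 110 the LW range was 117466 to 188648 and the MS range 75167 to 97779, without overlap. The part of this in the SLC1A5 differences was not tested. Other cell types' markers moved too. Among all kept probes 37.3% were higher and 35% lower on day 110, so the counts below were not read as a trait of a cell type. Of the endothelial markers 3 of 5 were lower on day 110 and VWF was higher. Their summed signal in LW fetuses was 23897 to 31109 on day 90 and 16826 to 20582 on day 110, and in MS fetuses 24186 to 29289 and 14428 to 16594. On day 110 the endothelial sums of LW and MS thus did not overlap either. Taken singly, 1 of the 5 endothelial markers was lower in MS there, against 29% of all kept probes that differed. Of the adipocyte markers 3 of 4 fell with age. Their summed signal on day 90 was 13244 to 27855 in LW fetuses and 7733 to 14275 in MS fetuses. On day 110 it was 12256 to 22771 in LW fetuses and 5326 to 10427 in MS fetuses, without overlap. Taken singly, 1 of the 4 adipocyte markers was lower in MS on day 110, where 29% of all kept probes differed. The macrophage markers fell in 3 of 5 cases, with sums of 3555 to 5209 on day 90 and 1821 to 3921 on day 110 over all genotypes. Of 4 measured blood markers 2 fell and ALAS2 rose (sums of 3377 to 8431 and 2950 to 5101). Of 4 Schwann cell markers 2 rose (9461 to 21757 and 11195 to 21115). Of the satellite cell markers PAX7 rose and MYF5 fell (1479 to 4166 and 971 to 2787). The part of these cell types in the transporter differences was likewise not tested.

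Other amino acid transporters also moved in both directions with age. Of 38 named, 14 were measured, and averaged over the genotypes 8 rose and 6 fell, where 72.3% of all kept probes changed, with a median difference of 0.38 against 0.04 over all kept probes. The rises were led by SLC1A3, a glutamate carrier (3.01), SLC7A2, a cationic amino acid carrier (1.77), and SLC3A1, a heavy chain related to SLC3A2 (1.60). The falls were led by SLC7A10 (-2.44), SLC7A7 (-1.40) and SLC38A5 (-0.72), the last a relative of SLC38A4. Within single genotypes 2 to 4 of the 14 did not pass the test, where 44.6% to 56.7% of all kept probes changed. On day 110, against 29% of all kept probes, 3 were higher in MS, SLC1A3 (1.28), SLC7A2 (0.88) and SLC7A3 (0.59), and 3 were lower, SLC7A10 (-1.04), SLC7A7 (-0.46) and SLC6A17 (-0.44). SLC7A7 is a light chain of SLC3A2, and it fell as SLC7A8 did. On day 90 none of the 14 differed between MS and LW, where 12.8% of all kept probes did. SLC1A3 was the only one of the 14 whose change with age differed between MS and LW (1.15, adjusted p = 0.00485). For all kept probes this share was 5.95%, so the count was not read as a trait of these genes. SLC1A3 is in the study's own lists.

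Genes of amino acid sensing upstream of mTORC1 moved in both directions. Of 23 named, 15 were measured, of which 7 rose with age, 3 fell and 5 did not pass the test (median difference 0.15), a share that changed no larger than the 72.3% of all kept probes. MLST8, a subunit of mTORC1, rose by 1.21, SESN1, a relative of the leucine sensor, by 0.75, and RPTOR, the scaffold of mTORC1, by 0.56. The falls were DEPDC5 (-0.77) and NPRL2 (-0.40), both subunits of the GATOR1 complex that restrains mTORC1, and RRAGD (-0.33). Between MS and LW on day 110 only DEPDC5 (-0.42) and NPRL2 (-0.22) of the 15 differed, where 29% of all kept probes did, both lower in MS, and NPRL2 was also lower on day 90 (-0.38).

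Genes of the response to amino acid shortage were measured for 8 of 9. With age 5 rose, 1 fell and 2 did not pass the test, which is close to the 72.3% of all kept probes that changed. Among them were EIF2AK4 (GCN2, the kinase that detects uncharged transfer RNA) at 1.14, DDIT4 at 1.13 and PSAT1, an enzyme of serine synthesis, at -0.80. CHAC1 also rose, although on day 90 its probe passed the background call in 0 of 8 LW fetuses. The EIF2AK4 probe passed it in 6 of 8 LW and 3 of 8 MS fetuses of that day. On day 110, where 29% of all kept probes differed, 4 of the 8 did. ASNS, which makes asparagine, and PHGDH, the first enzyme of serine synthesis, were higher in MS by 2.26 and 2.05, EIF2AK4 was higher by 0.93 and DDIT3 lower (-0.50). With age ASNS fell in LW (-1.73) and rose in MS (0.85), and PHGDH fell in LW (-1.93) while its difference in MS, 0.65, did not pass the test. The age changes of ASNS and PHGDH differed between MS and LW by 2.58 and 2.57, and between fetuses of MS and LW fathers by 1.57 and 1.70, past the test as for SLC3A2. Both genes are in the study's own lists. In MS replicate 6 of day 110, the fetus with the highest SLC3A2, 7 of the 8 genes were at their highest in the group. In LWMS replicate 7 this held for 2 of 8. The share of all kept probes that were highest in these fetuses was not counted. The counts were therefore not read as a response of these genes.

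Most measured enzymes of amino acid breakdown and transamination rose. Of 14 named, 12 were measured, with 10 higher on day 110, where 37.3% of all kept probes were higher, and a median difference of 1.28. GOT1, the cytosolic aspartate aminotransferase, rose by 2.25, ARG2, the mitochondrial arginase, by 2.24 on average, and BCKDHB, a subunit of the complex that degrades branched-chain amino acids, by 1.82. BCAT1, which starts the breakdown of branched-chain amino acids in the cytosol, fell (-0.28). On day 110 MS and LW differed in 6 of the 12, against 29% of all kept probes. ARG2 was higher in MS by 5.29, which is 39.2-fold, GOT1 by 0.82 and GOT2 by 0.56, and BCAT1 was lower (-1.36). ARG2 did not rise in every genotype. Its difference with age was -1.44 in LW (adjusted p = 0.00132), where it fell, and 3.93 in MS, 3.54 in LWMS and 2.92 in MSLW, where it rose. The age change was 5.37 higher in MS than in LW (adjusted p = 2.85e-09), in a gene that is also in the study's own lists. These gene lists, too, were described by their counts, and nothing in them was tested as a group.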

How the data were processed

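The arrays were 1-colour Agilent pig arrays, read with Agilent Feature Extraction, version 10.10.1.1 per the headers of the scanner files. The authors deposited 1 such file per fetus, with intensity values that were not normalized between arrays. They also deposited a table of log2 values, quantile normalized over the 61 arrays by the authors, which covers 44368 spots and ranks the spots of each array as its median signal does, with no background subtracted (lowest Spearman rho 1). That table and the median signal served as alternatives. Depth does not apply to arrays, and their number limits the precision.

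From the files, 3121 non-uniform spots and all controls were left out, the scanner software's background-corrected intensity was quantile normalized, log2 transformed, and averaged over spots of a probe (60305 probes). Kept probes had signal well above background in 80% or more of the fetuses of some group. Because the filter lets a probe in through the group where it is high, counts cover only the 7 genes that passed. Group means were fitted with limma 3.58.1 in R 4.3.3 over all 61 fetuses, 8 groups, no covariate, and two-sided p-values were adjusted by Benjamini-Hochberg over 42436 probes at 1%. Parental terms came from a model of age, maternal and paternal genotype. The study's sow effect was left out because the labels do not give the sow. Correlations were tested with 100000 permutations. The scripts were tested on simulated data. Alternatives varied background correction, signal column, normalization, filters, probe choice, slide and samples. The transporters and the gene lists were chosen with earlier results of these data known. All transporters were named in the text. Of each list, up to 3 genes per direction with the largest differences were named, as well as the 3 genes most correlated with each transporter, and 1 gene that the rule names is not reported here. Symbols came from the study's lists for 1717 probes, the array for 22623 and RefSeq for 2613, and 33352 probes had none. RefSeq-named probes lay outside the rule.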

Additional observations from a re-analysis of the deposited data

Results flagged for a closer look

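In 6 of the 56 combinations of transporter and group, the highest or lowest fetus stood apart from the rest, judged by its gap to the next fetus as a share of the group's range. Chance alone flags about 1 in 20 groups. SLC3A2 was far above the others in MS replicate 6 of day 110 (share 0.743) and in LWMS replicate 7 of day 110 (0.602), on all 4 probes in both. SLC38A1 was high in LWMS replicate 5 of day 90 (0.83) and in MS replicate 3 of day 90 (0.544), and on the second SLC38A1 probe these fetuses ranked 7 of 8 and 5 of 8. SLC1A5 was high in LWMS replicate 1 of day 90 (0.529), on all 4 probes. SLC7A8 was low in MSLW replicate 1 of day 110 (0.71), on both kept probes.

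The change with age differed between MS and LW for SLC3A2 (by 1.29 on the log2 scale) and SLC7A1 (0.96), and between fetuses of MS and LW fathers for SLC3A2 (1.02), each by a test of the difference itself. On the SLC3A2 probe with the highest mean signal among those named by the array itself, neither difference passed (1.26, adjusted p = 0.0152, and 1.09, adjusted p = 0.0192). This probe is in the study's lists for both contrasts as well.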

How the results depend on the processing

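Of 98 results for single transporters, 36 passed the test, and none changed sign among those that passed under any alternative run. The number of genes that changed with age in LW was 5, and 3 under a filter that asked for signal well above background in all 61 fetuses, which left 5 genes. For the mother's genotype the count was 0, and 1 with the normexp correction (SLC38A4, 0.69, adjusted p = 0.00879) or with slide as a block (SLC1A5, -0.32, adjusted p = 0.00863). For the father's genotype it was 1. It was 0 to 1 when each MSLW fetus of day 110 was left out, with 0 without replicate 4. It was 0 without the SLC3A2 probe that the study's lists alone name, and 1 gene in place of 2 then had an age change that differed between MS and LW. Without LWMS replicate 7 of day 110 it was 2, SLC3A2 and SLC7A1. These last 2 alternatives were chosen after seeing the data, as were leaving out MS replicate 6 of day 110, leaving out MSLW replicate 2 of day 90, whose array deviated most, and adding the probes outside the rule, none of which moved a count by over 1.5 times. With the normexp correction the larger rise of SLC38A4 in MS than in LW passed the test (adjusted p = 0.00149, against 0.00149 to 0.0983 over the alternatives). The causes were not tested.

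Sizes moved with the processing. The difference of SLC38A4 between MS and LW on day 90 went down to 0.86, that of SLC7A8 with age to -0.67 and that of SLC1A4 to -0.13, without a change of direction. Scaling by the 75th percentile shifted the median of all probes by at most 0.09. No analysis paired by replicate number was possible because the labels give no replicate numbers, so that the numbers only name samples. Slide, which the files give, was used as a block instead, and differences were also taken within slides. In the comparisons of the crosses with the purebred genotypes on day 110, 4 alternatives chosen after seeing the data ended no call, and with slide as a block SLC1A4 also differed between MS and MSLW (-1.04, adjusted p = 0.00444).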
